A study of Vitis vinifera with 165 samples.

Results

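The subject is a pair of neighbouring gene models of grapevine, VIT_16s0100g00290, an L-idonate dehydrogenase gene, and VIT_16s0100g00300, whose identifier follows it on chromosome 16. They were picked by identifier, 2 of the 29971 gene models in the expression table, and both passed the filter on low values (3 or more libraries at 1 RPKM or above), as did 20460 gene models in all. The table pairs no identifier with a gene name, so the neighbour is given no enzyme name of its own.

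Tartaric acid is the acid that sets grape berries apart from most fruit. The vine makes it from ascorbate, and most of it is laid down in the green berry before veraison, the onset of ripening, when berries soften, colour and begin to store sugar. On that route L-idonate dehydrogenase, an enzyme characterised in grapevine, oxidises L-idonate to 5-keto-D-gluconate, and the carbon chain is cut afterwards to give tartrate. Unlike malate, tartrate is hardly respired as the berry ripens. No acid was measured in the values used here, so the results concern transcripts alone.

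Berries of Vitis vinifera cv Pinot noir (clone FPS 23 on the rootstock Freedom) came from vines on which 50% or 75% of the crop had been removed as clusters. Removing 50% left 1 cluster on each shoot. In the 75% treatment every other shoot carried a cluster. Both arms are thinned, and unthinned vines were not analysed here, so every thinning difference is one between degrees of thinning. RNA was taken from seedless ground berries, labelled pericarp, on days -28 to 42 relative to veraison in 2012, -14 to 37 in 2013 and -14 to 49 in 2014. The 165 libraries form 55 groups of season, thinning level and day, each with 3 replicates of 60 berries from 6 clusters. Day 34 of 2012 and day 38 of 2014 were sampled at 75% only, and day 42 of 2012 at 50% only, which leaves 26 days with both levels.

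The values are RPKM, reads normalised to the length of the gene model and to the mapped reads of the library, so levels of the 2 genes can be compared on 1 scale. Read depth is unknown, because no counts come with the values, and the RPKM of a library summed to between 876732 and 1405120. Per the study's design text, sampling followed blocks of 8 vines in 9 rows, with 3 rows for each treatment. No label ties a replicate to a block or row, so the same plots may have been sampled on successive days, and the p-values reflect only how these samples vary, part of which may be technical. Replicates of a group correlated with r from 0.942 to 0.996 across gene models, with a median of 0.992 on the log2 scale. At 50% thinning on day -18 of 2012, replicates 1 and 2 stood apart from replicate 3, with r of 0.957 and 0.975, and at 75% on day 0 of that season replicate 2 stood apart from replicates 1 and 3, with r of 0.943 and 0.942. The r between replicates 1 and 2 of that day -18 group is not given here, so these values do not say which side is the odd one. Results that rest on replicates 1 and 2 of that group, or on replicate 2 of the day 0 group, are also given without them. How veraison was scored is not stated in the labels. Sugar on day 0 averaged 12.3 and 10.5 g per 100 ml in 2012 and 2013 and 1.73 g in 2014. Day 0 may thus not mark the same stage in 2014, or its sugar labels may be off. Each day 0 value and season difference of that year carries this limit. Tissue markers could not be checked, since the gene models carry no names. The libraries did not keep strand, so reads of an antisense transcript cannot be told from those of the gene, and neighbouring copies of similar sequence may share reads that the counting divided between them.

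In green berries VIT_16s0100g00290 lay in the top 3.63% of gene models by level, and by veraison it fell to 0.14 of its green-stage level on the log2(RPKM + 1) scale. In the green stage, taken as day -18 in 2012 and day -14 in 2013 and 2014, the 18 libraries ran from 106.49 to 300.08 RPKM with a median of 168.63, and the mean of 178.07 ± 54.9 (SD, n = 18) ranked 743 of 20460. On day 0 the mean was 23.4 ± 5.17 (SD, n = 18), with a rank of 5485. No library of day 0 came near the green stage, since the highest of them reached 34.2 RPKM. The fitted change from the green stage to day 0 was a log2 difference of -2.84 ± 0.07 (SE; limma on log2(RPKM + 1), adjusted p = 3.362e-66). A change over ripening was called here at an adjusted p under 0.05 together with a log2 change of at least 1, and 12.8% of all gene models tested were called lower in this comparison. By season the change was -3.21 in 2012, -2.52 in 2013 and -2.79 in 2014 (each ± 0.12), with 18.3%, 12.3% and 11.6% of gene models called lower. Without the 2 libraries of day -18 that stood apart it was -2.93 for VIT_16s0100g00290 in 2012 and -2.75 over the seasons, and without that of day 0 it was -3.14 and -2.82.

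The season-by-season values show where the fall lay. In 2012 the 6 libraries of day -28 ran from 170.21 to 314.73 RPKM (median 236.62), those of day -18 from 150.82 to 300.08 (median 168.63) and those of day -9 from 51.0 to 68.4 (median 55.8). The 6 libraries of day 0 then lay between 16.8 and 25.1 RPKM, so that neither of the last steps overlapped. From day -18 to day -9 VIT_16s0100g00290 fell by 1.75 ± 0.12 (SE) on the log2 scale, and from day -9 to day 0 by 1.46 ± 0.12. Of all gene models tested, 8.39% and 6.62% were called lower over these steps. Without the 2 libraries that stood apart, it fell by 1.47 from day -18 to day -9, and without that of day 0 it fell by 1.39 from day -9 to day 0, both past the threshold.

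In 2013 the gene started from a lower level. The 6 libraries of day -14 ran from 106.49 to 143.61 RPKM (median 116.51), those of day -7 from 40.6 to 98.7 (median 65.3) and those of day 0 from 16.1 to 23.7 (median 21.4). From day -7 to day 0 the gene fell by 1.64 ± 0.12 (SE, log2), against 3.18% of gene models called lower over that week. The difference from day -14 to day -7, a log2 change of -0.88 ± 0.12 (limma, adjusted p = 1.2e-09), did not reach the fold threshold. It did so without replicate 2 (-1.17) and with sugar as a covariate (-1.07).

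In 2014 the larger part of the fall lay within the last sampling interval before day 0. The 6 libraries of day -14 ran from 184.21 to 223.51 RPKM (median 219.04) and those of day -6 from 130.79 to 157.67 (median 141.31). These days did not overlap, and the log2 difference of -0.56 ± 0.12 (SE; limma, adjusted p = 0.000152) was under the fold threshold. On day 0 they lay between 26.6 and 34.2 RPKM, a fall by 2.23 ± 0.12 (SE, log2; limma, adjusted p = 4.81e-33) over a step in which 10.4% of gene models were called lower. The lowest level of that season came on day 7, where the 6 libraries ran from 15.3 to 29.5 RPKM (median 18.6). In 2012 and 2013 the lowest group mean of both thinning levels was on day 0.

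**Figure D1:**
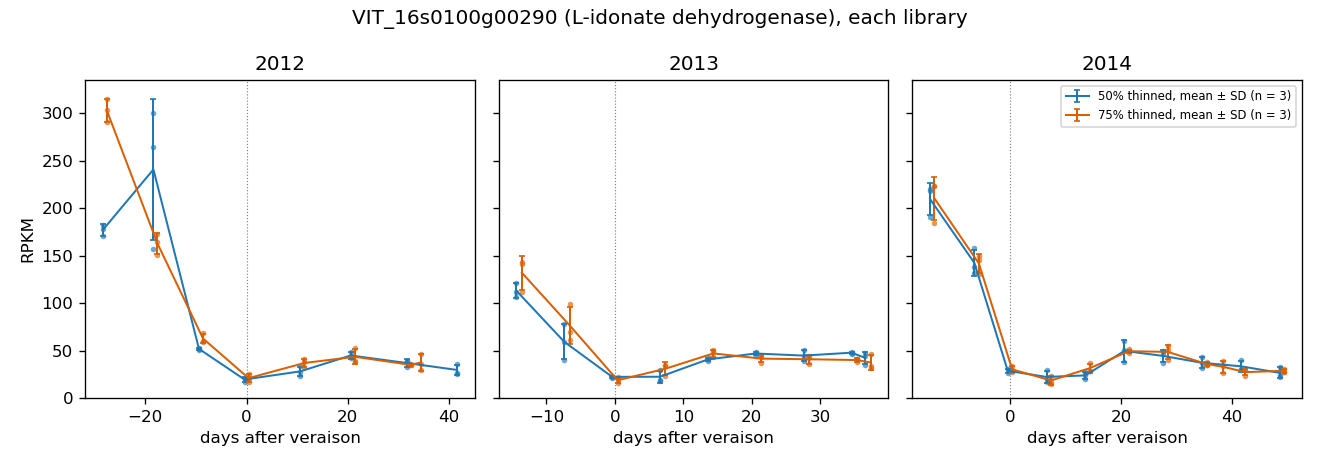
Levels of VIT_16s0100g00290 in RPKM (y axis) against days after veraison (x axis) in 2012, 2013 and 2014, with a point for each library and lines through the mean ± SD of 3 libraries at 50% (blue) and 75% (orange) thinning. Levels of 106.49 RPKM and more in the green stage end at or below 34.2 on day 0, and a second, lower maximum follows between day 14 and day 35, at group means of 43.5 to 49.7 RPKM.

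The transcript did not stay at its minimum. By day 21 the 18 libraries of the 3 seasons ran from 37.1 to 60.4 RPKM, with a mean of 45.97 ± 5.92 (SD, n = 18), and the lowest of them was above the highest of day 0. The gene rose from day 0 to day 21 by a log2 change of 1.09 ± 0.12 (SE) in 2012 and of 1.08 ± 0.12 in 2013, where 3.72% and 4.91% of gene models were called higher. Without the library of day 0 of 2012 that stood apart, the value of that season was 1.02 and kept its call. With sugar as a covariate, which is nearly confounded with the day, VIT_16s0100g00290 lost both calls, at 0.52 (adjusted p = 0.0785) in 2012 and 0.35 (adjusted p = 0.368) in 2013. In 2014 the difference was 0.72 ± 0.12 (limma, adjusted p = 2.1e-07), under the fold threshold. The mean over the seasons, 0.96 ± 0.07 or 1.95-fold, was also just under it. When the libraries were scaled to a common distribution by quantile normalization, that mean was 1.08 and passed. Set against the green stage, day 21 remained lower, at a log2 difference of -1.88 ± 0.07 (SE; adjusted p = 4.838e-49 with limma), a comparison in which 22.3% of gene models were called lower and the median of all gene models was -0.30. Quantile normalization moved that median to 0.06 and the change of VIT_16s0100g00290 to -1.70, a call that it kept. With days -9, -7 and -6 as the green stage the change was -0.81, under the fold threshold.

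Late in ripening the level was lower again in 2014 and, by less, in 2012, while in 2013 a difference was not detected. No difference within a season reached the fold threshold with all libraries and no covariate. On the last day with both thinning levels, the 6 libraries of 2012 (day 32) ran from 32.6 to 39.2 RPKM, those of 2013 (day 37) from 31.6 to 47.4 and those of 2014 (day 49) from 22.1 to 33.0. The 2014 libraries of day 49 lay below all 6 of day 21 in that season, which ran from 38.2 to 60.4, and in 2012 and 2013 the 2 days overlapped. From day 21 to the last day the log2 difference was -0.28 ± 0.12 in 2012 (SE; limma, adjusted p = 0.0479). It was -0.16 ± 0.12 in 2013 (adjusted p = 0.313) and -0.82 ± 0.12 in 2014 (adjusted p = 9.03e-09). The value of 2014 was -1.27 and passed with sugar as a covariate. The value of 2014 minus that of 2012 was -0.53 ± 0.18 (limma, adjusted p = 0.0187), and minus that of 2013 it was -0.66 ± 0.18 (adjusted p = 0.00334). For VIT_16s0100g00290 the first of these calls was lost without replicate 1 (-0.61, adjusted p = 0.0892), without replicate 2 (-0.32, adjusted p = 0.317) and under quantile normalization (-0.44, adjusted p = 0.0511), and the second without replicate 2 (-0.49, adjusted p = 0.091). Calls on a difference between seasons rest on the adjusted p alone, and 21.8% of gene models passed in the comparison of 2014 with 2012 and 18.9% in that with 2013. The last days are 32, 37 and 49 days after veraison, so season and time on the vine cannot be told apart here.

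The neighbour VIT_16s0100g00300 was higher on day 21 than on day 0, as VIT_16s0100g00290 was, and unlike it went on to higher levels up to the last day. Across the 3 seasons its 18 libraries of day 0 ran from 54.3 to 87.6 RPKM, with a mean of 75.6 ± 7.91 (SD, n = 18). On the last day with both thinning levels they had a mean of 213.65 ± 25.4 (SD, n = 18) and none was under 165.5. The gene rose by 1.49 ± 0.05 (SE) on the log2 scale (95% interval 1.39 to 1.58; limma, adjusted p = 5.716e-54), or 2.80-fold on the log2(RPKM + 1) scale, where 7.83% of gene models were called higher. It rose in each season, by 1.32 in 2012, 1.56 in 2013 and 1.57 in 2014 (each ± 0.09), with 10.5%, 8.87% and 8.14% of gene models called higher. Without replicate 2 of 75% thinning on day 0 of 2012, the rise of VIT_16s0100g00300 was 1.22 in that season and 1.45 over all. With sugar as a covariate it was 0.84 over the seasons, and 0.89, 0.98 and 0.65 in the 3 seasons, all under the fold threshold. This contrast was added after the course of the gene had been seen.

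Before veraison the neighbour went through a shallow minimum. In 2012 the 6 libraries ran from 95.3 to 113.08 RPKM on day -28, from 68.5 to 124.19 on day -18, from 57.0 to 65.1 on day -9 and from 54.3 to 87.6 on day 0. In 2013 the day means were 111.77, 73.7 and 74.2 RPKM on days -14, -7 and 0, and in 2014 they were 93.6, 90.7 and 77.9 on days -14, -6 and 0 (n = 6 each). The minimum of the day means thus fell on day -9, day -7 and day 0 of the 3 seasons. The difference between the green stage and day 0 was a log2 value of -0.40 ± 0.05 (SE; limma, adjusted p = 1.55e-12), well under the fold threshold. With days -9, -7 and -6 taken as the green stage it was 0.02, with an adjusted p of 0.703, so its sign rests on the earlier days.

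Day by day after veraison, the neighbour's means were higher at nearly every sampling, and no single step reached the fold threshold. The 2012 means were 107.06, 133.87 and 186.30 RPKM on days 11, 21 and 32. The 2013 means were 89.7, 115.09, 148.25, 158.18, 202.15 and 221.20 on days 7, 14, 21, 28, 35 and 37. The 2014 means were 89.9, 93.4, 148.71, 149.56, 203.56, 236.63 and 233.45 on days 7, 14, 21, 28, 35, 42 and 49. In 2014 the widest differences lay in 2 separate weeks, day 14 to 21 with a log2 change of 0.66 ± 0.09 (SE) and day 28 to 35 with 0.46 ± 0.09, with a change of -0.01 ± 0.09 between them. Over the last week of 2014 the change was -0.02 ± 0.09 (95% interval -0.19 to 0.15). The whole step from day 0 to day 21 was 0.91 ± 0.05, and under quantile normalization it was 1.03 and passed the threshold. From the green stage to day 21 the change was 0.51 ± 0.05 (SE; limma, adjusted p = 2.275e-17), under the fold threshold. By season it was 0.46, 0.40 and 0.66. With days -9, -7 and -6 as the green stage it was 1.095 in 2012 and 1.00 in 2013, and passed in these seasons alone.

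**Figure D2:**
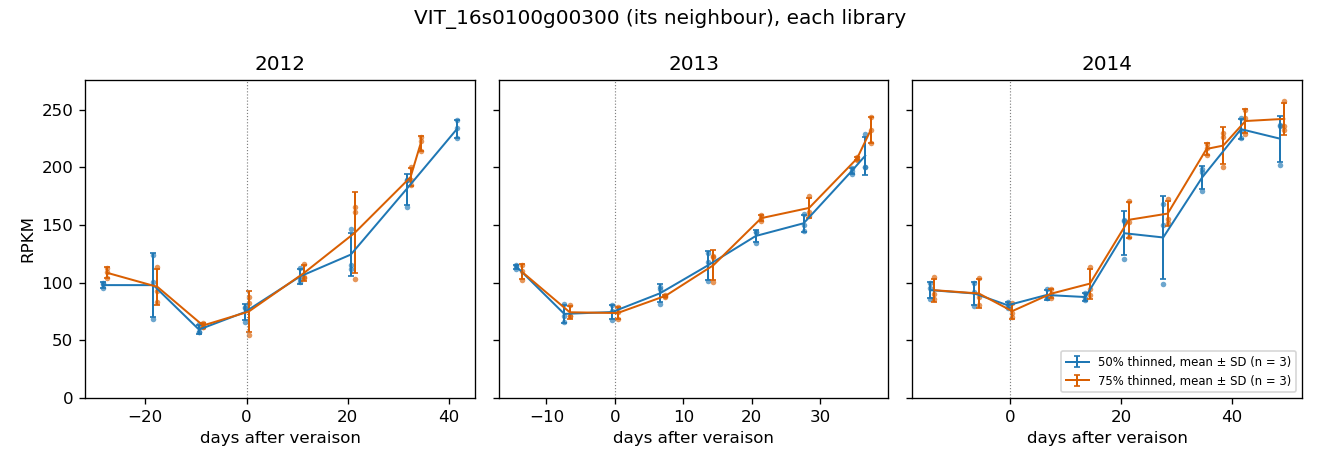
Levels of VIT_16s0100g00300 in RPKM (y axis) against days after veraison (x axis) in 2012, 2013 and 2014, with a point for each library and lines through the mean ± SD of 3 libraries at 50% (blue) and 75% (orange) thinning. The lowest group mean of each season and arm lies between 59.4 and 80.4 RPKM, on days -9 to 0, and the last day of each arm has means between 210.09 and 242.02 RPKM.

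The order of the 2 transcripts was therefore inverted by veraison. The ratio of VIT_16s0100g00290 to VIT_16s0100g00300, computed within each library, averaged 2.30 ± 0.54 (SD, n = 6) on day -28 and 2.21 ± 1.01 on day -18 of 2012, and in the green berries of 2014 it was 2.25 ± 0.19 (day -14) and 1.59 ± 0.24 (day -6). On these days all 6 libraries were above 1. In 2013 the ratio was already near 1 in the earliest sample, 1.10 ± 0.19 on day -14, with 3 of 6 libraries above 1. It was 0.94 ± 0.10 on day -9 of 2012 and 0.91 ± 0.20 on day -7 of 2013, each with 1 of 6 libraries above 1. On day 0 it was 0.27 ± 0.02, 0.28 ± 0.05 and 0.38 ± 0.04 in the 3 seasons, and from then on no library of any season reached 1. The lowest day mean was 0.118 ± 0.01, on day 49 of 2014.

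Between the green stage and day 21, the mean log2 ratio, with 1 added to each RPKM, went from 1.02 ± 0.61 (SD, n = 6) to -1.56 ± 0.28 in 2012, from 0.12 ± 0.23 to -1.73 ± 0.21 in 2013 and from 1.16 ± 0.12 to -1.57 ± 0.15 in 2014. The 2 stages did not overlap in any season. The wide spread of the green stage in 2012 belongs to day -18 at 50% thinning. There replicates 1, 2 and 3 had 264.82, 300.08 and 157.34 RPKM of VIT_16s0100g00290 and 68.5, 100.98 and 124.19 RPKM of VIT_16s0100g00300.

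**Figure D3:**
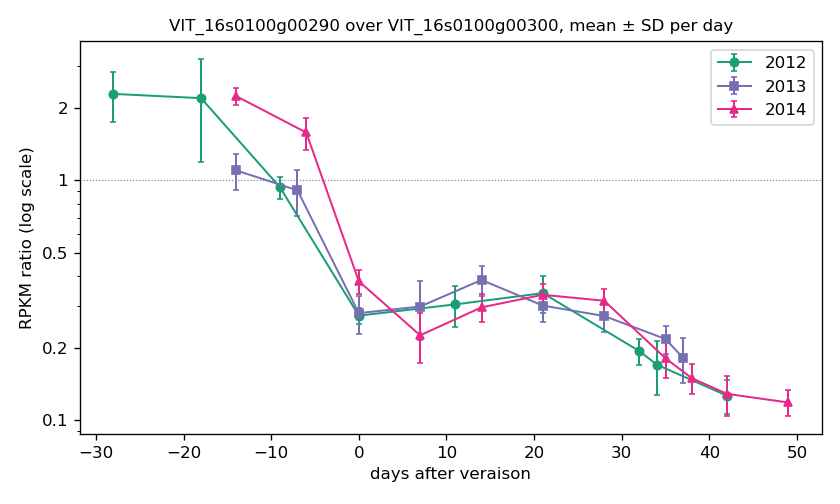
Ratio of the RPKM of VIT_16s0100g00290 to that of VIT_16s0100g00300 (y axis, log scale) against days after veraison (x axis), as the mean ± SD of the libraries of a day in 2012 (circles), 2013 (squares) and 2014 (triangles). The dotted line marks equal levels, which the means cross before day 0, and the means end between 0.118 and 0.182 on the last day of each season.

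Sugar content, given in the labels for each library, served as another clock of ripening. Among the 22 libraries with 8 to 15 g of sugar per 100 ml, VIT_16s0100g00290 ran from 15.3 to 35.3 RPKM with a median of 20.6, its lowest class. Among the 33 libraries under 2 g it ran from 26.6 to 314.73 (median 157.67), and among the 33 libraries with 20 to 24 g from 23.6 to 60.4 (median 42.9). The neighbour had its lowest class median, 71.0 RPKM, at 2 to 8 g, and its highest, 216.73, among the 39 libraries with at least 24 g.

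In 2014 VIT_16s0100g00290 fell between 2 samplings whose labelled sugar contents were nearly equal. The labels give 1.74 ± 0.18 g per 100 ml on day -6 and 1.73 ± 0.30 on day 0 (SD, n = 6), a difference of -0.013 (two-sided exact permutation test, p = 0.935). Over the same interval the transcript went from a mean of 142.07 to 29.5 RPKM. On day 0 of 2012 and 2013 the libraries already had 12.3 and 10.5 g per 100 ml on average. By labelled sugar, day 0 of 2014 thus lies earlier. From day 0 to day 7 of 2014 the labelled mean went from 1.73 to 12.1 g. Whether the day labels or the sugar labels of day 0 are off in that season was not tested. By these labels, day 7 of 2014 is the nearest match to day 0 of the other seasons. There the gene had 20.4 RPKM against 20.3 on day 0 of 2012, a log2 difference of -0.01 ± 0.12 (SE; 95% interval -0.26 to 0.23), and against 20.5 on day 0 of 2013, a difference of -0.03 ± 0.12 (-0.28 to 0.21). At the same match the neighbour was higher in 2014, 89.9 RPKM against 74.6 and 74.2, with log2 differences of 0.28 ± 0.09 from both seasons (limma, adjusted p = 0.00386 and 0.0162), under the fold threshold. Without replicate 2 of 75% thinning on day 0 of 2012, the difference of VIT_16s0100g00300 from that season was 0.18 (adjusted p = 0.1). This match by sugar was chosen after the data had been seen.

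**Figure D4:**
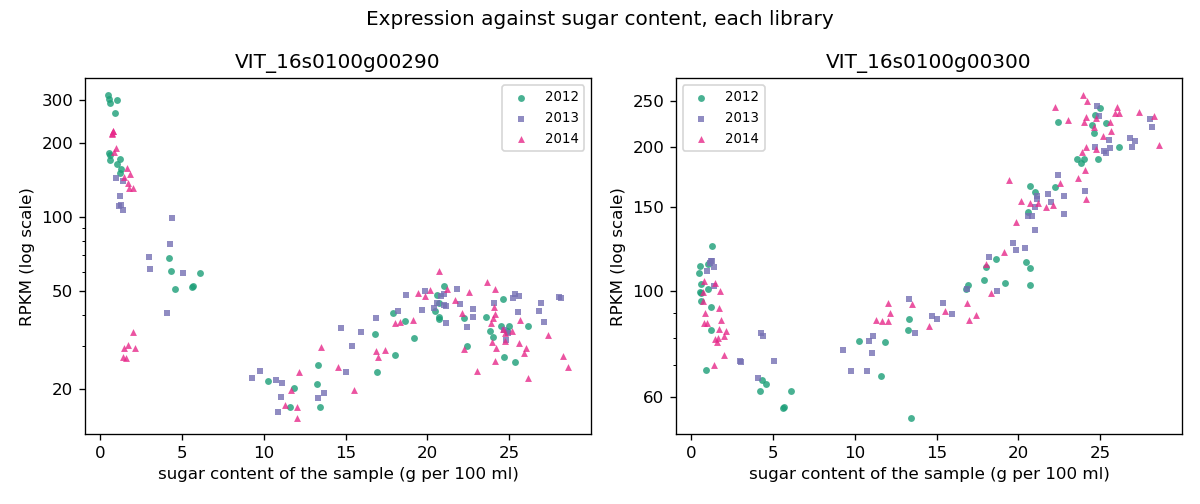
RPKM (y axis, log scale) of VIT_16s0100g00290 (left) and VIT_16s0100g00300 (right) against the sugar content of each sample (x axis, g per 100 ml), with a point for each library of 2012 (circles), 2013 (squares) and 2014 (triangles). On the left, 6 libraries of day 0 of 2014 lie between 26.6 and 34.2 RPKM at 1.4 to 2.15 g, below all other libraries of that sugar range, and on the right the neighbour climbs from about 15 g on.

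Without sugar as a covariate, no season difference of VIT_16s0100g00290 on a single day reached the fold threshold, and the widest was in the green stage. With that covariate the widest were on day 0 and passed, at 1.25 for 2014 minus 2012 (limma, adjusted p = 9.92e-05) and 1.10 for 2014 minus 2013 (adjusted p = 0.00015), against 0.53 and 0.51 without it. These 2 values are extrapolations. The slope of the covariate comes only from replicates within a group, while mean sugar on day 0 was 12.3, 10.5 and 1.73 g per 100 ml. At like sugar, day 7 of 2014 differed from day 0 of 2012 and 2013 by -0.01 and -0.03. On day -14 the L-idonate dehydrogenase gene had 209.96 ± 17.6 RPKM in 2014 and 122.52 ± 15.99 in 2013 (SD, n = 6), without overlap, since the lowest library of 2014 had 184.21 and the highest of 2013 had 143.61. The log2 difference was 0.78 ± 0.12 (SE; limma, adjusted p = 4.805e-08), under the fold threshold. On day 14 the order was turned, with 27.7 ± 5.64 RPKM in 2014 and 43.9 ± 4.32 in 2013, a difference of -0.66 ± 0.12 (adjusted p = 5.66e-06). By day 21 the 3 seasons had 44.2 ± 5.44, 44.2 ± 4.03 and 49.5 ± 7.14 RPKM, which do not differ beyond their spread. Averaged over the days shared by 2013 and 2014, the difference was 0.04 ± 0.05 (95% interval -0.06 to 0.13). For the neighbour, 2014 minus 2013 over these days was -0.08 ± 0.03 (limma, adjusted p = 0.028), under the fold threshold. On days -14, 0 and 14 it was -0.26, 0.07 and -0.30, each ± 0.09 (adjusted p = 0.00867, 0.718 and 0.00343), also under that threshold.

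The change from the green stage to day 21 was itself different between seasons for VIT_16s0100g00290. It was -2.12 in 2012, -1.44 in 2013 and -2.07 in 2014 (log2, each ± 0.12 SE), with 23.4%, 23% and 22.3% of gene models called lower. The moderated F test over the season differences gave an adjusted p of 0.00077, a test that 49.7% of all gene models passed. The fall in 2013 was smaller than in 2012 by 0.68 ± 0.18 (limma, adjusted p = 0.00203; 22.9% of gene models passed) and 2014 minus 2013 gave -0.63 ± 0.18 (adjusted p = 0.00241; 38.4%). Without the 2 libraries of day -18 that stood apart, the difference between 2013 and 2012 was 0.40 with an adjusted p of 0.123, and that between 2014 and 2013 kept its call. Without replicate 1 the latter lost it (-0.51, adjusted p = 0.114), and without replicate 2 the former did (0.53, adjusted p = 0.0609). With days -9, -7 and -6 as the green stage, 2013 minus 2012 was -0.19 for VIT_16s0100g00290 and did not pass. The fall to day 0 was smaller than in 2012 by 0.69 ± 0.18 in 2013 (33.9% of gene models passed) and by 0.42 ± 0.18 in 2014 (47.5% passed), and both values rest on 2012. Without the 2 libraries of day -18 they were 0.41 and 0.14, and without that of day 0 they were 0.62 and 0.35, of which only 0.62 passed (adjusted p = 0.00628). With days -9, -7 and -6 as the green stage both signs turned: 2013 minus 2012 was -0.18, and 2014 minus 2012 was -0.77 and passed (adjusted p = 9.7e-05), a larger fall in 2014. Without replicate 2 they were 0.46 and 0.15, and neither passed. The value of 2014 minus 2012 also lost its call without replicate 1 (0.51, adjusted p = 0.0801) and under quantile normalization (0.15, adjusted p = 0.494). The change from day 0 to the last day was 0.81 in 2012, 0.91 in 2013 and -0.10 in 2014, and 2014 differed from 2012 by -0.91 ± 0.18 (50.5% passed) and from 2013 by -1.01 ± 0.18 (13.3% passed). In VIT_16s0100g00300 the difference between the green stage and day 0 was smaller in 2014 than in 2013 by 0.33 ± 0.12 (limma, adjusted p = 0.0257; 37.7% passed). That call was lost without replicate 1 (0.33, adjusted p = 0.109) and without replicate 2 (0.23, adjusted p = 0.175), and with days -9, -7 and -6 as the green stage the value was -0.22. For the neighbour the F test gave an adjusted p of 0.152 with all libraries and 0.0164 without those 2, so whether its change differed between seasons depends on them.

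Averaged over days and seasons, the difference between thinning levels passed the test for neither gene. At 75% against 50% thinning, VIT_16s0100g00290 had a log2 difference of 0.06 ± 0.03 (SE; 95% interval -0.01 to 0.13; limma, adjusted p = 0.485), and VIT_16s0100g00300 one of 0.07 ± 0.02 (0.02 to 0.11; adjusted p = 0.129). A thinning difference was called at an adjusted p under 0.05, and 2.9% of gene models passed. Without replicate 2 of 75% thinning on day 0 of 2012, the difference of VIT_16s0100g00300 was 0.08 and passed (adjusted p = 0.0359). The mean of the L-idonate dehydrogenase gene was higher at 75% on 13 of 26 days, and that of its neighbour on 20 of 26. These counts were not set against those of other gene models. A difference of the thinning effect between seasons did not pass (adjusted p of the F test 0.977 and 0.998), a test that 0.0293% of gene models passed. Nor did a difference of the change from the green stage to day 21 between the levels (0.03 ± 0.14 and 0.17 ± 0.10, adjusted p = 0.961 and 0.499; 1% of gene models passed).

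The thinning levels were furthest apart for VIT_16s0100g00290 in the earliest green berries of 2012, and the sign changed between the first 2 samplings. On day -28 the replicates had 182.67, 178.11 and 170.21 RPKM at 50% and 290.58, 303.22 and 314.73 at 75%, without overlap. On day -18 they had 264.82, 300.08 and 157.34 at 50% and 164.75, 150.82 and 172.51 at 75%, where the third replicate of 50% lay within the range of the 75% libraries. The log2 difference was 0.77 ± 0.18 on day -28 (SE; limma, adjusted p = 0.000362; 21% of gene models called) and -0.51 ± 0.18 on day -18 (adjusted p = 0.0322; 16.6% called). The change of the thinning difference between these days was -1.28 ± 0.25 (adjusted p = 1.453e-05; 31.8% of gene models passed). The call of day -28 was kept when any 1 of its 6 libraries was left out, at values from 0.74 to 0.80.

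The value of day -18 depends on which libraries are kept. Without replicates 1 and 2 of 50%, the difference of VIT_16s0100g00290 was 0.05, and the change between the days was -0.73. That fit leaves 1 library at 50%, so it cannot tell which replicates are the odd ones. Of the 6 single libraries, leaving out any 1 of 4 lost the call. These were replicates 1 and 2 of 50% (-0.42 and -0.33) and replicates 1 and 2 of 75% (-0.52 and -0.46). Leaving out either of the other 2 kept the call, and the widest value among the 6 was -0.79. The neighbour had log2 differences of 0.15 ± 0.12 and 0.01 ± 0.12 on the same days (adjusted p = 0.449 and 0.995). On the 24 other matched days no thinning difference of either gene passed.

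From day 21 to harvest the neighbour was slightly higher on the more heavily thinned vines. Over 11 matched days of the 3 seasons its mean was 191.65 RPKM at 75% and 175.96 at 50%, and the mean at 75% was the higher one on all 11 days. On 3 of them, day 21 and day 35 of 2013 and day 35 of 2014, the replicates did not overlap. On day 35 of 2013, for example, they had 199.07, 196.79 and 194.14 RPKM at 50% and 207.47, 208.89 and 206.55 at 75%. No share of gene models with such day counts was computed. Successive days may also share plots, so the counts only describe these samples. The log2 difference was 0.13 ± 0.04 (SE; limma, adjusted p = 0.0339), a 1.09-fold difference in a comparison where 5.04% of gene models were called in either direction and 1.08% in this one.

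That small difference of VIT_16s0100g00300 did not hold its call under every omission. Leaving out any 1 of 7 of the 11 days lost it, with the highest adjusted p (0.296) without day 21 of 2012, as did leaving out any 1 of 9 of the 66 libraries. It was also lost when the libraries of 1 replicate number were left out throughout (0.09 to 0.16, adjusted p from 0.0615 to 0.558). With sugar as a covariate the value was 0.11 and lost its call as well (limma, adjusted p = 0.109). Sugar was higher at 75% on most of these days, as on day 28 of 2014 (23.3 against 20.9 g per 100 ml). It was lower on others, as on day 42 (23.15 against 25.24 g). With the mean over days of each replicate number, season and level as the unit, the thinning difference was 0.13 with an adjusted p of 0.208. Its difference from the effect before veraison (0.11 ± 0.06, adjusted p = 0.388) or from that of days 0 to 14 (0.12 ± 0.06, adjusted p = 0.502) did not pass. VIT_16s0100g00290 had a difference of -0.08 ± 0.06 over the same days (adjusted p = 0.546) and was the lower one at 75% on 9 of 11 days.

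**Figure D5:**
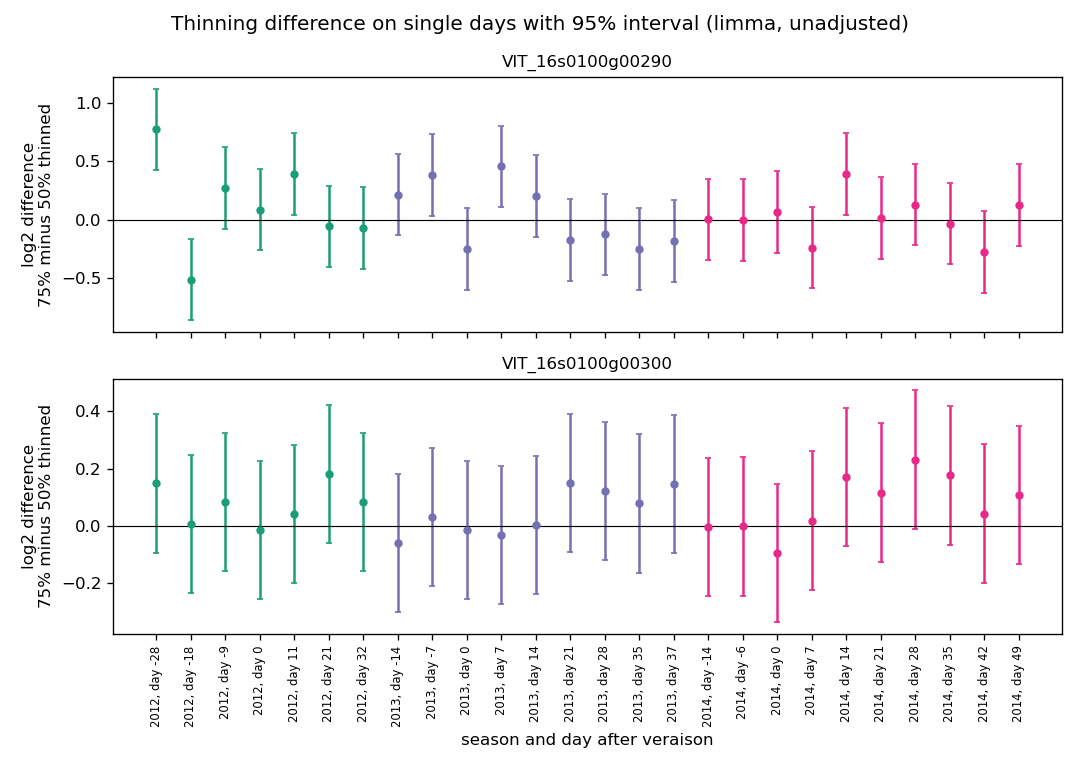
Thinning difference, 75% minus 50%, in log2(RPKM + 1) (y axis) on each of the 26 matched days (x axis) for VIT_16s0100g00290 (top) and VIT_16s0100g00300 (bottom), with 95% intervals from limma that are not adjusted for multiple tests and colours by season. The points of day -28 and day -18 of 2012 in the top panel, 0.77 and -0.51, lie on opposite sides of 0, and the bottom panel stays above 0 on all 11 days from day 21 on.

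The 2 genes differed in direction over some parts of the course and not over others. From day -18 to day -9 of 2012 the log2 differences were -1.75 for VIT_16s0100g00290 and -0.63 for VIT_16s0100g00300, and from day -14 to day -7 of 2013 they were -0.88 and -0.60. From day 0 to day 21 they were 0.96 and 0.91 over the seasons, and from day 21 to the last day -0.42 and 0.57. Across the 55 group means of log2(RPKM + 1) their Pearson correlation was -0.18, and across the 165 libraries the correlation of their deviations from the group means was 0.22. The gene models most like VIT_16s0100g00290 across the group means were VIT_15s0046g00290 and VIT_14s0068g01020 (r = 0.941 for both), VIT_01s0026g01640 (0.937), VIT_05s0124g00240 (0.935) and VIT_09s0002g00670 (0.935), and 122 gene models had an r above 0.9. Those most like VIT_16s0100g00300 were VIT_07s0031g03030 (0.979), VIT_08s0007g01810 (0.974), VIT_07s0005g00280 (0.972), VIT_15s0048g02780 (0.971) and VIT_13s0156g00250 (0.970), and 478 gene models had an r above 0.9. All points of these correlations share libraries and the course of ripening, so they are given as a description.

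Likeness in shape did not mean likeness in level. VIT_15s0046g00290 went from 48.0 ± 14.4 RPKM in the green stage to 1.56 ± 0.39 on day 21 (SD, n = 18), and VIT_01s0026g01640 from 126.33 ± 17.1 to 64.98 ± 6.80. VIT_07s0031g03030, the nearest to the neighbour, went from 45.9 ± 3.56 to 91.7 ± 14.7.

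Around the pair, the gene models with identifiers from VIT_16s0100g00190 to VIT_16s0100g00400 went in both directions. Of 20 listed besides the pair, 17 passed the filter. Between the green stage and day 21 there was 1 called higher and there were 3 called lower. Of all gene models tested, 7.66% were called higher and 22.3% lower, 29.9% in either direction. Whether the counts depart from these shares was not tested. Their median log2 change was -0.25, beside -0.30 over all gene models tested. VIT_16s0100g00310, the next identifier after the pair, fell by 2.09 ± 0.07 (SE, log2), from 18.2 ± 1.99 to 3.50 ± 0.51 RPKM (SD, n = 18). VIT_16s0100g00400 rose by 2.79 ± 0.10, from 8.31 ± 5.54 to 56.6 ± 21.2 RPKM. VIT_16s0100g00330 and VIT_16s0100g00380 fell by 1.42 and 1.28. Since the berry is a bulk sample, fewer cells that hold a transcript and less of it in each cell cannot be told apart for any of these genes.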

How the data were processed

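The authors deposited 1 table of RPKM values per gene model and library, which per the labels came from non-directional TruSeq libraries of berry RNA. TopHat2 2.0.6 and Cufflinks 2.0.2 are named in the submitters' processing notes, with no roles, and the genome build and gene annotation are not given in the sources used here. Because RPKM values are no counts, no count test was run, and no counting interval can be given.

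Values were taken as log2(RPKM + 1) and fitted with limma 3.58.1 (trend, R 4.3.3), with a mean for each of the 55 groups of 3 libraries and 110 residual degrees of freedom. P-values were adjusted by the Benjamini-Hochberg method over 20460 gene models, those at 1 RPKM or above in 3 or more libraries, and only the rows of the pair and of the gene models named by rule are printed. That rule took the 5 models most correlated with each member and the 4 of the surrounding identifiers with the largest ripening change. A fold change on this scale slightly understates that of low values. Sugar was compared by an exact permutation test (scipy 1.17.1). The fit was also run on simulated data with independent noise in each library, so that run does not cover shared plots or outlying libraries. The members, contrasts and lists were chosen with earlier results of these data known.

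The replicate numbers of the 2 thinning levels do not pair the libraries. Of 78 same-numbered pairs, 20 had correlated deviations above 0.1, with a median r of -0.008. Alternatives were another pseudocount, no filter, quantile normalization, a replicate block, sugar as a covariate, other days as the green stage, and leaving out replicates, libraries or days. No sequences of the gene models were used here. A list of other ascorbate and tartrate genes was not used, because none of the identifiers matched the reference table of names (0 matched).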

Additional observations from a re-analysis of the deposited data

Results flagged for a closer look

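The season differences of VIT_16s0100g00290 drew attention because a test of the difference itself passed (limma, adjusted p under 0.05). The share of all gene models that passed the same test is given with each value. Its log2 change from the green stage to day 21 was smaller in 2013 than in 2012, by 0.68 ± 0.18 (SE; 22.9% passed). The value for 2014 minus 2013 was -0.63 ± 0.18 (38.4% passed). The first lost its call without replicates 1 and 2 of 50% thinning on day -18 of 2012 (0.40, adjusted p = 0.123) and without replicate 2 (0.53, adjusted p = 0.0609), and was -0.19 with days -9, -7 and -6 as the green stage. The second lost it without replicate 1 (-0.51, adjusted p = 0.114). The F test over the seasons gave an adjusted p of 0.00077, and 49.7% of gene models passed it. The step from the green stage to day 0 differed by 0.69 ± 0.18 for 2013 minus 2012 (33.9% passed) and by 0.42 ± 0.18 for 2014 minus 2012 (47.5% passed). Both of these values use day -18 of 2012, and without replicates 1 and 2 of 50% thinning on that day they were 0.41 and 0.14, with adjusted p of 0.0708 and 0.555. With the later green-stage days they were -0.18 and -0.77, the latter past the threshold in the opposite direction.

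The late part of the course differed as well. From day 21 to the last day, 2014 minus 2012 was -0.53 ± 0.18 (21.8% passed) and 2014 minus 2013 was -0.66 ± 0.18 (18.9% passed). Without replicate 2 neither passed (-0.32 and -0.49, adjusted p = 0.317 and 0.091), and the first also lost its call without replicate 1 (-0.61) and under quantile normalization (-0.44). From day 0 to the last day they were -0.91 ± 0.18 (50.5% passed) and -1.01 ± 0.18 (13.3% passed). In 2014 the gene ended at 27.6 ± 4.03 RPKM, close to the 29.5 ± 2.74 of day 0 (SD, n = 6), while in 2012 and 2013 it ended at 36.0 ± 2.70 and 39.8 ± 7.19, above the 20.3 and 20.5 of day 0. The last days are 32, 37 and 49, and day 0 of 2014 lies earlier by labelled sugar.

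The thinning difference of VIT_16s0100g00290 changed from day -28 to day -18 of 2012 by -1.28 ± 0.25 (adjusted p = 1.453e-05), and by -0.73 without the 2 libraries that stood apart. For VIT_16s0100g00300, the step from the green stage to day 0 differed between 2014 and 2013 by 0.33 ± 0.12 (adjusted p = 0.0257), with 93.6 and 77.9 RPKM in 2014 and 111.77 and 74.2 in 2013. Without replicate 1 or 2 the difference did not pass (adjusted p = 0.109 and 0.175), and with the later green-stage days it was -0.22.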

How the results depend on the processing

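The falls of VIT_16s0100g00290 before veraison and the rise of VIT_16s0100g00300 from day 0 to the last day kept their direction under every alternative run. That rise lost its call with sugar as a covariate. Not every value reported was recomputed. Under the alternatives chosen at the outset, 986 recomputed values kept their outcome, counting those that passed neither before nor after. Another 34 lost the call and 21 gained it without a change of sign. The 39 that changed sign are counted apart, and some of them also lost a call. Of the alternatives added after the data were examined, 69 kept the call and 20 lost it. A replicate block changed no call and left the fall of VIT_16s0100g00290 from the green stage to day 21 at -1.88. The cause of a change named below was not tested.

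Quantile normalization took the step from day 0 to day 21 past the fold threshold for VIT_16s0100g00290 (1.08) and VIT_16s0100g00300 (1.03). It turned the sign of 3 values of VIT_16s0100g00290, none of which had passed: day 0 to the last day of 2014 (0.013), the thinning difference of days 0 to 14 minus that before veraison (0.0033) and day 7 of 2014 minus day 0 of 2013 (0.077).

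With days -9, -7 and -6 as the green stage, part of the fall was over. The change of VIT_16s0100g00290 to day 21 was then -0.81, its difference between 75% and 50% thinning -0.29, and its 2013 minus 2012 difference -0.19. For the step to day 0, the 2013 minus 2012 difference was -0.18 and that of 2014 minus 2012 -0.77, which passed in the opposite direction. For VIT_16s0100g00300 the step to day 0 was 0.022 over the seasons, 0.27 in 2012 and 0.010 in 2013, and 2014 minus 2013 was -0.22.

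The slope of sugar as a covariate comes only from replicates within a group, so comparisons of days with unlike sugar are extrapolated. Sugar as a covariate is nearly confounded with the day. With it, the difference of VIT_16s0100g00290 from day 0 to day 21 was 0.52, 0.35 and -0.54 in the 3 seasons, with both calls lost, and that from day 0 to the last day was -0.66 (-0.0018 in 2012, -0.17 in 2013). Its thinning difference in 2013 was -0.0056, and that of day 21 to harvest minus before veraison -0.29, which passed. VIT_16s0100g00300 then had a change from the green stage to day 21 of -0.21 (limma, adjusted p = 0.621), against 0.51 without the covariate. In the 3 seasons it was -0.26, -0.33 and -0.052. Its change from day 0 to the last day was 0.84, under the fold threshold, as in each season. Its 2014 minus 2013 difference over shared days was 0.0063, against -0.08 without the covariate. Its thinning differences were -0.033 on days 0 to 14 and 0.11 from day 21 to harvest, the latter with its call lost.

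Without replicates 1 and 2 of 50% thinning on day -18 of 2012, the thinning difference of VIT_16s0100g00290 before veraison was 0.22 and passed (adjusted p = 0.0375). So did that of day 21 to harvest minus before veraison (-0.30), while that of the change to day 21 was -0.16 and that of day -18 of 2012 was 0.046. For VIT_16s0100g00300 the thinning difference before veraison was -0.022, that of days 0 to 14 minus before veraison 0.031, and the F test over seasons had an adjusted p of 0.0164. Without replicate 2 of 75% thinning on day 0 of 2012, the mean thinning difference of VIT_16s0100g00300 was 0.076 and passed (adjusted p = 0.0359), its 2014 minus 2012 difference on day 0 was -0.031, and days 0 to 14 minus before veraison gave 0.024, and 0.014 for VIT_16s0100g00290.

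The late thinning difference of VIT_16s0100g00300 lost its call with the mean over days of each replicate number, season and level as the unit (0.13). It also lost it without day 21 (0.11) or day 32 (0.15) of 2012, day 21 (0.13), day 28 (0.13) or day 37 (0.13) of 2013, or day 28 (0.12) or day 35 (0.13) of 2014. Leaving out single libraries (9 of 66 lost the call) or replicate numbers gave 0.088 to 0.17. The 9 libraries were, at 50% thinning, replicates 1 and 2 of day 21 and 2 of day 32 in 2012, and 1 of day 21 and 2 of day 28 in 2014, and, at 75%, replicates 1 and 3 of day 21 and 1 of day 32 in 2012, and 3 of day 21 in 2014.

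Leaving out 1 replicate number gave 0.91 to 1.00 for the step of VIT_16s0100g00290 from day 0 to day 21, past the threshold only without replicate 3. Other values that changed sign had not passed. For VIT_16s0100g00290 these were the thinning difference of 2014 (-0.030 to 0.086), days 0 to 14 minus before veraison (-0.052 to 0.072), the thinning difference of the change to day 21 (-0.11 to 0.19), and day 7 of 2014 minus day 0 of 2012 (-0.043 to 0.020) and of 2013 (-0.14 to 0.025). For VIT_16s0100g00300 they were day 0 of 2014 minus 2012 (-0.099 to 0.17), the thinning difference of days 0 to 14 (-0.024 to 0.026) and that difference minus the one before veraison (-0.046 to 0.024).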
